A study of Mus musculus with 8 samples.

Results

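The genes described here are the histone genes of the Hist clusters, chosen by a gene name on the array that begins with Hist1h, Hist2h, Hist3h or Hist4h. The array carried 49 of them on 57 probes, out of 55681 probes in all, and 35 genes gave a value that could be tested. They were measured in total RNA from the hippocampus of female C57BL6/J mice, 8 weeks old by the labels, with Agilent arrays of a single colour and the dye Cy3. Both groups had spent 4 weeks in an enriched environment, which means cages with added space and objects. One group of 4 samples was treated with anti-CD4 antibodies, directed at the surface protein of helper T lymphocytes, and the other group of 4 samples with control antibodies. Whether each sample is a separate animal is not stated in the labels, so the spread behind the p-values may not be that between animals. The comparison asks whether histone messages in the hippocampus differed after treatment with antibodies against CD4.

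Histones are the proteins around which DNA is wound. The core histones H2A, H2B, H3 and H4 form the nucleosome, and the linker histone H1 binds the DNA where it enters and leaves. Most are made from clustered genes without introns, switched on while a cell copies its DNA. Their messages end in a stem-loop held by the protein Slbp in place of a poly(A) tail, although some of these genes also give polyadenylated messages in cells that no longer divide. Replacement histones, which lie outside the clusters, serve cells that have stopped dividing, such as neurons. In the adult hippocampus, dividing cells are found mainly in the dentate gyrus.

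The copies of a core histone gene are so alike that a probe made for one can bind the message of others. The probes of H2A show this best, and 5 of them are printed because the lowest array described below is seen with each. They are given 5' to 3' with their position on mm9, and capitals mark the bases that differ from the Hist1h2af probe where they overlap. The Hist1h2af probe lies at chr13:23626113-23626172 on the plus strand, Hist1h2ak at chr13:21845304-21845363, Hist1h2an at chr13:21878695-21878754 and Hist1h2ah at chr13:22127035-22127094 on the minus strand, and Hist2h2aa2 at chr3:96043781-96043840 on the minus strand.
Hist1h2af: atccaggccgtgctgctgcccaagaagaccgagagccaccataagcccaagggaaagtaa
Hist1h2ak: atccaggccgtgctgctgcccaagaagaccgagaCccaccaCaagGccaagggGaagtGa
Hist1h2an: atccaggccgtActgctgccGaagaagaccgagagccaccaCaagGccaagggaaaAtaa
Hist2h2aa2: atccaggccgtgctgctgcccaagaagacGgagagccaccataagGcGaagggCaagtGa
Hist1h2ah: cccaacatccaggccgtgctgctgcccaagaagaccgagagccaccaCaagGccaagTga
The probes of Hist1h2ak, Hist1h2an and Hist2h2aa2 each differed from that of Hist1h2af at 5 of 60 bases. The Hist1h2ah probe starts 6 bases further upstream and differed at 3 of the 54 bases that overlap. The probe of Hist1h1b, the linker histone gene described first below, lies at chr13:21871923-21871982 on the minus strand of mm9, and the file lists 1 RefSeq gene for it.
Hist1h1b: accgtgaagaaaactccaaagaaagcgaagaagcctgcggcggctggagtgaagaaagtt
For 13 of the 35 tested genes the probe's accessions belong to several RefSeq genes, and for 22 to at most 1. Each value below is therefore that of a probe named for a gene, and near copies of the gene may share in it.

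Levels are log2 signals minus the array's 75th percentile, so a level of 0 is the 75th percentile of all probes on that array. To be tested, a gene needed a probe that 4 or more of the 8 arrays showed well above background, and the brightest such probe was used. By type, 3 of 6 genes for H1, 11 of 14 for H2A, 9 of 12 for H2B, 4 of 8 for H3 and 8 of 9 for H4 were tested. By cluster, 25 of 37 were tested in Hist1, which lies on chromosome 13, 7 of 8 in Hist2 on chromosome 3, 2 of 3 in Hist3 on chromosome 11 and the 1 gene of Hist4 on chromosome 6. Of the 14 untested genes, 10 were not well above background on any array and 4 were so on 1 to 3 arrays. The probes used were well above background on all 8 arrays for 33 of the 35 genes. All 8 arrays lay on 1 slide, with the 4 anti-CD4 arrays in one row and the 4 control arrays in the other, so the row on the slide and the treatment cannot be told apart.

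No histone gene of the clusters differed between anti-CD4 and control samples after adjustment over all 23608 rows tested (0 of 35, limma), and neither did any other row, so percent called was 0% overall. At an unadjusted p under 0.05 the call was met by 1 of 35 histone genes, or 2.86%, against 13% of all rows. That gene was lower in anti-CD4 samples, as were 6.83% of all rows, and 0 histone genes were higher, against 6.17% of all rows. The groups did not overlap for the same 1 gene, Hist1h1b, against 8.18% of all rows, of which 4.36% were lower and 3.82% higher in anti-CD4 samples. The difference, anti-CD4 minus control, was above 0 for 19 genes and below 0 for 16. Its median was 0.03 over the histone genes and 0.01 over all rows, and the 35 values ran from -0.35 to 0.35. The 95% interval of the difference lay within 0.5 of 0 on the log2 scale for 26 of the 35 genes and within 1 for 34. In bulk tissue, fewer cells of a type and less RNA per cell cannot be told apart.

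**Figure D1:**
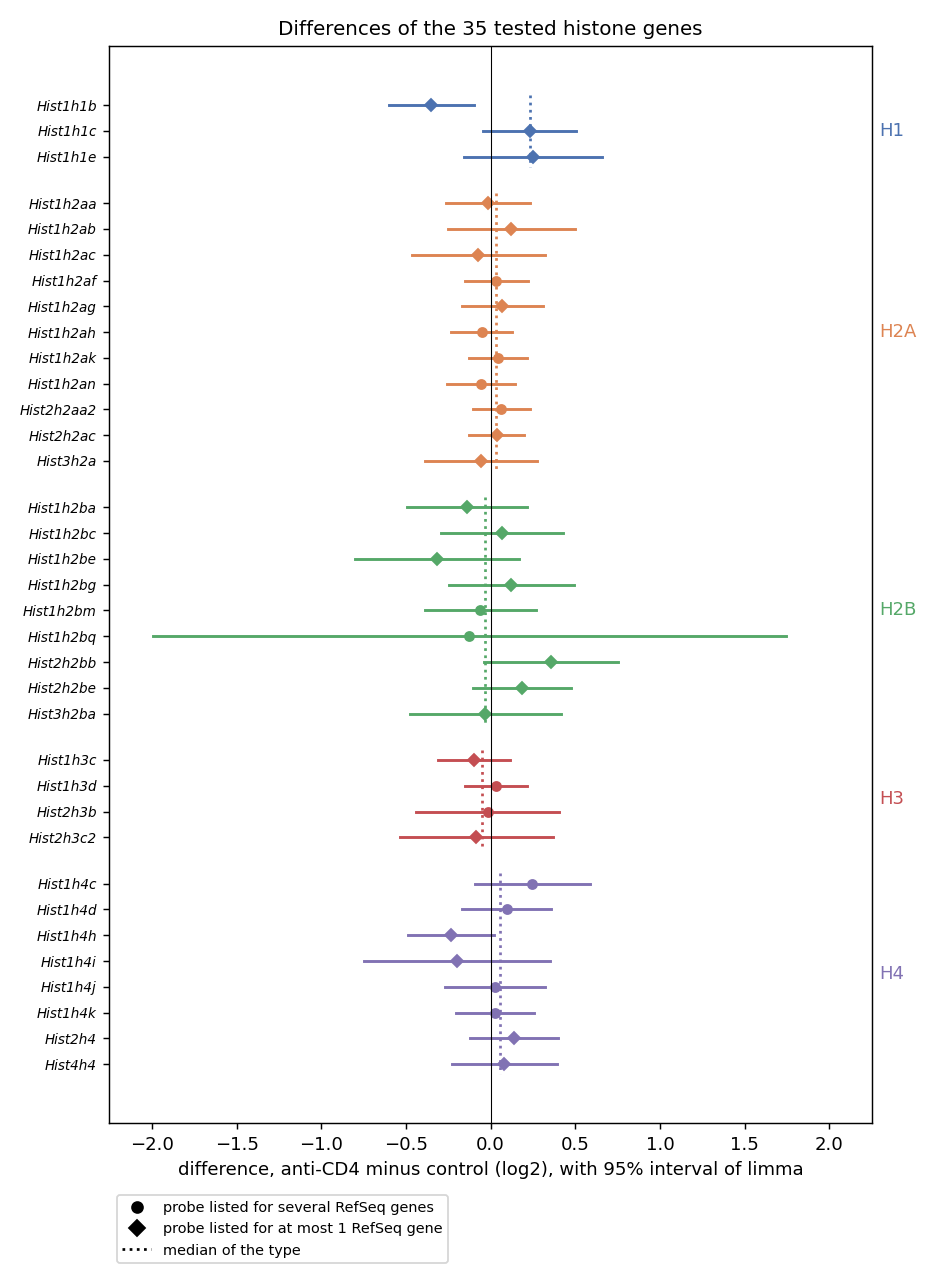
Difference between anti-CD4 and control samples (log2, x axis) for the 35 tested histone genes, grouped by type from H1 at the top to H4, with 95% intervals from limma, dotted medians per type, and circles where a probe is listed for several RefSeq genes. Only the interval of Hist1h1b, -0.60 to -0.10, leaves out 0, and Hist1h2bq has the widest, -1.99 to 1.74.

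The linker histones gave values on either side of 0. Hist1h1b, now named H1f5, encodes a linker histone made along with DNA copying. Its level was -2.57, -2.94, -2.68 and -2.58 in the 4 anti-CD4 samples, against -2.46, -2.15, -2.28 and -2.48 in the 4 control samples. Every anti-CD4 sample was below every control sample, although the nearest values of the groups lay close together. The mean was -2.69 ± 0.17 in anti-CD4 and -2.34 ± 0.16 in control samples (SD, n = 4 each), a difference of -0.35 with a standard error of 0.11, or 0.785-fold. The limma p was 0.0120 before and 0.270 after adjustment over all rows. The exact permutation p was 0.0286, the smallest that 4 against 4 can give and the value of any gene with groups apart. Over the alternatives tried, the adjusted p of Hist1h1b ran from 0.198 to 0.631, and with the values of the authors' table its difference was -0.18.

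Hist1h1c and Hist1h1e encode linker histones that are also made outside the phase of DNA copying. Hist1h1c was at 2.10, 1.78, 2.29 and 2.01 in anti-CD4 samples, against 1.70, 2.02, 1.86 and 1.68 in control samples. Its groups overlapped, and its difference of 0.23 had an adjusted p of 0.456 in limma. Hist1h1e was at 1.74, 1.09, 0.98 and 1.63 in anti-CD4 samples, against 1.07, 1.07, 1.31 and 0.98 in control samples. Anti-CD4 replicates 1 and 4 were the highest arrays for Hist1h1e and replicate 3 was the lowest, and the difference of 0.25 had an adjusted p of 0.569. The median difference of the 3 linker histone genes was 0.23. Of the other H1 genes on the array, Hist1h1d and Hist1h1t, a gene known from the testis, were not well above background on any array.

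H2A, which pairs with H2B on the rim of the nucleosome, had the most tested genes, and its median standard error of a difference was 0.0885, the lowest of the 5 types. H2A was also the brightest type, with a median level of 4.51. All rows at or above the histone genes' median level, 1.93, had a median standard error of 0.0791. None of the 11 H2A genes met the unadjusted threshold, and the smallest unadjusted p was 0.417, with an adjusted p of 0.741 in limma. The differences ran from -0.07 to 0.12 with a median of 0.03. Hist2h2aa2 was at 5.86, 5.65, 5.86 and 5.87 in anti-CD4 samples, against 5.66, 5.80, 5.79 and 5.76 in control samples. Of its anti-CD4 samples, 3 lay above every control sample, and replicate 2 lay below them all. Its difference was 0.06, with a 95% interval from -0.10 to 0.23. Hist1h2ah was at 5.79, 5.51, 5.81 and 5.75 in anti-CD4 samples, against 5.72, 5.78, 5.78 and 5.79 in control samples, again with replicate 2 as the lowest. Its difference was -0.05, with a 95% interval from -0.23 to 0.12.

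H2B is the partner of H2A, and its 9 genes varied more. Their differences ran from -0.32 to 0.35 with a median of -0.03, and none met the unadjusted threshold. Hist2h2bb was at -1.33, -1.78, -1.66 and -1.37 in anti-CD4 samples, against -1.98, -2.30, -1.72 and -1.55 in control samples. The groups overlapped, and the difference of 0.35 had an unadjusted p of 0.0725 and an adjusted p of 0.426. Its unadjusted p was under 0.05 in 5 of 17 alternatives, with an adjusted p of 0.162 or more in each. Hist1h2bc was at 4.98, 4.42, 5.06 and 4.61 in anti-CD4 samples, against 4.49, 4.90, 4.80 and 4.61 in control samples, a difference of 0.07. Hist1h2bm was at 3.46, 3.005, 3.69 and 3.31 in anti-CD4 samples, against 3.31, 3.63, 3.41 and 3.36 in control samples, a difference of -0.06. For both genes anti-CD4 replicate 3 was the highest array and replicate 2 the lowest. Hist1h2bq, chosen after its values were seen, was well above background on 2 anti-CD4 and 3 control arrays only, and its levels ran from -5.60 to -1.98 in anti-CD4 and from -4.84 to -3.10 in control samples.

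H3 carries the tail with most of the known chromatin marks. Its 4 tested genes had differences from -0.10 to 0.03 with a median of -0.05. Hist1h3d was at 4.12, 3.90, 3.96 and 4.02 in anti-CD4 samples, against 3.80, 4.01, 4.06 and 4.00 in control samples, with overlapping groups. Hist2h3c2 was at 1.48, 0.83, 1.83 and 1.15 in anti-CD4 samples, against 1.22, 1.58, 1.43 and 1.40 in control samples, so the anti-CD4 samples held both its highest and its lowest value. Hist1h3c was at -0.04, -0.11, 0.21 and 0.15 in anti-CD4 samples, against 0.04, 0.29, 0.13 and 0.15 in control samples. It had the smallest unadjusted p of the type, 0.314, with an adjusted p of 0.670.

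H4, which joins H3 in the centre of the nucleosome, had 6 of 8 genes above 0 and 2 below. The differences ran from -0.23 to 0.25 with a median of 0.06, and none met the unadjusted threshold. Hist2h4 was at 5.02, 4.67, 4.81 and 5.08 in anti-CD4 samples, against 4.54, 4.77, 4.88 and 4.85 in control samples. Hist1h4k was at 4.93, 4.62, 4.75 and 5.02 in anti-CD4 samples, against 4.66, 4.79, 4.86 and 4.89 in control samples. In both genes anti-CD4 replicates 1 and 4 were above every control sample and replicates 2 and 3 were not. Hist1h4h was at -1.24, -1.40, -1.38 and -1.06 in anti-CD4 samples, against -1.03, -0.88, -1.27 and -0.96 in control samples. Its difference of -0.23 had an unadjusted p of 0.0647 and an adjusted p of 0.415.

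The small clusters gave no difference past the threshold. Hist3h2a was at 3.37, 2.94, 3.38 and 3.15 in anti-CD4 samples, against 2.93, 3.52, 3.32 and 3.30 in control samples, with an adjusted p of 0.894. Hist3h2ba was at 2.23, 2.16, 2.76 and 2.73 in anti-CD4 samples, against 2.19, 2.94, 2.39 and 2.48 in control samples, with an adjusted p of 0.961. In Hist4h4 the levels were 2.29, 2.11, 2.28 and 2.63 in anti-CD4 samples, against 1.99, 2.20, 2.31 and 2.49 in control samples, with an adjusted p of 0.823. The groups of all 3 genes overlapped. The median difference was 0.03 for the 25 genes of Hist1 and 0.06 for the 7 of Hist2.

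Probes of one gene did not always give the same reading. On the array 7 of the genes had more than 1 probe, and for 5 of them more than 1 was tested. Hist1h4i had a difference of -0.20 by the probe used, which starts at base 574 of its target, and of 0.22 and 0.21 by its probes at bases 23 and 483. The accessions of the probe used match no RefSeq gene, while those of each other probe match 1. For Hist2h4 the probe at base 230 was well above background on all 8 arrays and the probe at base 3 on 0. For Hist4h4 the probe at base 212 was so on all 8 arrays and the probe at base 1788 on 0. Hist2h2bb had a difference of 0.35 by the probe at base 433 and of 0.17 by the probe at base 1340. The probes used for 5 genes, those of Hist1h1c, Hist1h2ac, Hist1h2be, Hist1h2bq and Hist2h2be, start past base 1000 of their target, further along than the coding part of a histone gene. Hist1h4i, Hist1h2ac, Hist1h2be and Hist2h2be were chosen here after their values were seen.

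**Figure D2:**
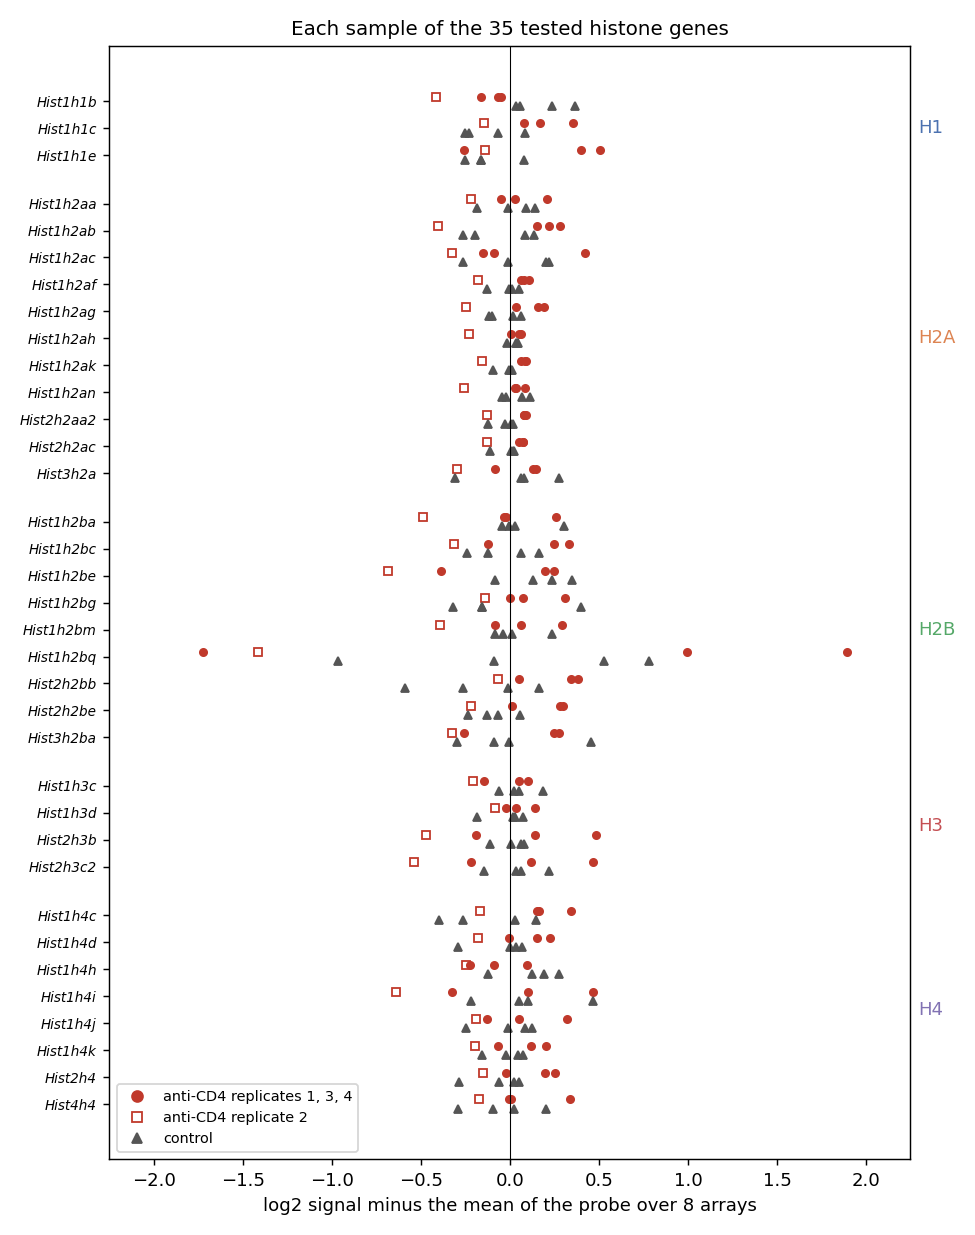
Each sample's log2 signal for the 35 tested histone genes, as the deviation from the probe's mean over 8 arrays (x axis), with anti-CD4 samples (circles, open squares for replicate 2) drawn above control samples (triangles) within each gene. Anti-CD4 replicate 2 is the lowest of the 8 arrays for 22 of the 35 genes.

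The histone genes varied together from array to array, and 1 anti-CD4 sample stood apart. Anti-CD4 replicate 2 was the lowest of the 8 arrays for 22 of the 35 histone genes, or 62.9%, against 13.4% of all rows and 14.9% of the 6834 rows at or above the median level of the histone genes. Among H2A it was lowest for 10 of 11 genes, among H2B for 5 of 9, among H3 for 3 of 4 and among H4 for 3 of 8. Its median deviation from the probe mean was -0.22 over all 35 genes, against -0.01 over all rows on the same array. By type this deviation was -0.23 for H2A, -0.33 for H2B, -0.34 for H3, -0.19 for H4 and -0.15 for H1. Control replicate 1 was the next lowest array, with a median deviation of -0.15 and the lowest value for 6 genes, and the rows of like level were also lowest there in 37.1%. On anti-CD4 replicate 4 H4 had its highest value for 6 of 8 genes, while H2B and H3 stood highest on anti-CD4 replicate 3, with median deviations of 0.29 and 0.28. These genes share arrays, and in part probe sequence, so they are not separate measurements of an array.

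**Figure D3:**
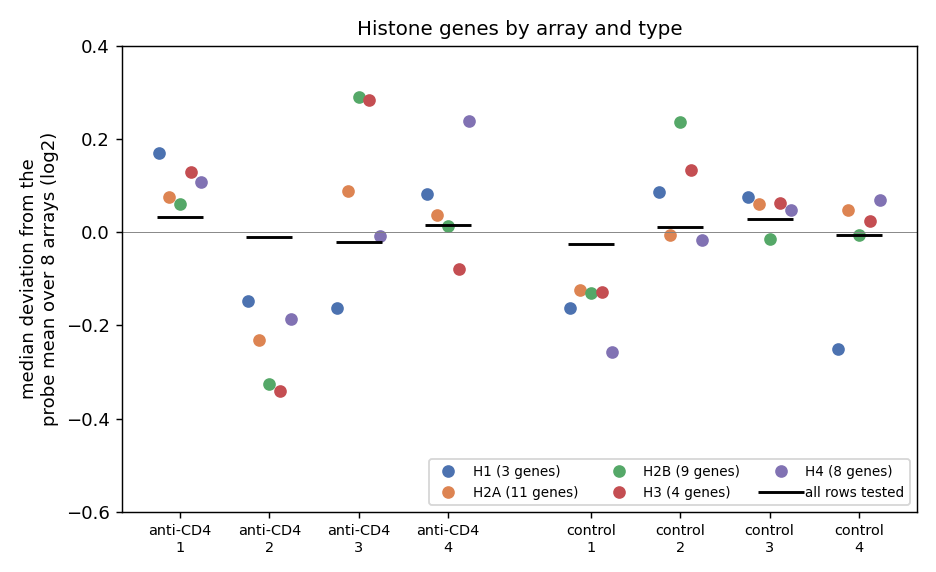
Median deviation of each histone type from the probe means over 8 arrays (log2, y axis) on the 4 anti-CD4 and the 4 control arrays, with a black bar for all rows tested. On anti-CD4 replicate 2 all 5 types lie below 0, from -0.34 for H3 to -0.15 for H1, while the bar for all rows is at -0.01.

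With group means removed, the correlation between 2 histone genes over the 8 arrays had a median of 0.62 over 595 pairs, against 0.03 over pairs of all rows and 0.21 over pairs of rows at or above the histone genes' median level. It was 0.76 for pairs of the same type, 0.59 for pairs of different types and 0.84 within H2A. The relation was not seen without a pair of arrays: the median over histone genes was 0.34 without anti-CD4 replicate 2 and -0.02 without that sample and control replicate 1, settings chosen after seeing the data. Over the rows at or above the histone genes' median level it was 0.23 and 0.15 in those settings. The arrays left out were those where the histone genes lay lowest together, so part of the fall follows from that choice. Within groups, the median SD of a histone gene was 0.200, against 0.144 over all rows.

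Leaving out anti-CD4 replicate 2 moved the counts. Without it, 6 of 35 histone genes, or 17.1%, met an unadjusted p under 0.05, against 9.41% of all rows, and none passed the adjusted threshold (limma, smallest adjusted p 0.481). Of these, Hist1h1c, Hist2h2be, Hist1h4c, Hist2h2bb and Hist1h2ab were higher in anti-CD4 than in control samples by 0.28 to 0.44, and Hist1h1b was lower, with a difference of -0.27. The groups then did not overlap for 7 genes, 6 higher in anti-CD4 samples and 1 lower, or 20% against 10.7% of all rows. Of those 6, Hist2h2aa2, Hist1h2ak, Hist1h2af and Hist2h2ac had differences of only 0.09 to 0.12. The median difference of the 35 genes became 0.10, with 29 above 0. Replicate 2 was singled out on these same histone values, so leaving it out raises most anti-CD4 means by construction. The shift toward higher counts is therefore not a separate result. Anti-CD4 replicate 2 also had the lowest mean level of the hippocampal neuron markers, 3.08 against 3.16 to 3.46 on the other arrays. Of these markers Prox1, Pou3f1 and Neurod6 were lowest there, Wfs1 was highest at 4.75, and Calb1 and Snap25 were neither. The mean of the oligodendrocyte markers was lowest there, 3.63 against 3.81 to 4.19, and that of the T lymphocyte markers highest, 0.48. It had the most outlier-flagged spots, 179, against 166 and 165 on anti-CD4 replicates 1 and 3. The part of the markers and flagged spots in the low histone values was not tested.

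Markers of other cells and tissues differed between the samples as well. All 6 hippocampal neuron markers were well above background, with means over the list of 3.08 to 3.36 in anti-CD4 and 3.19 to 3.46 in control samples. Of these markers 2 were higher and 4 lower in anti-CD4 samples, from -0.52 for Prox1 and -0.50 for Neurod6 to 0.43 for Calb1. Only the groups of Neurod6 were apart, and none passed the adjusted threshold. Red blood cell markers, of which 4 of 5 were tested with Slc4a1 left out as dim, had means of 1.70 to 1.92 in anti-CD4 and 1.03 to 1.39 in control samples. The 8 choroid plexus markers had means of -1.82 to 3.56 in anti-CD4 and -2.77 to 3.02 in control samples, so this tissue varied within both groups. Markers of the hypothalamus and thalamus, 4 of 7 tested without Avp, Oxt and Pmch, had means of -1.85 to -0.47 in anti-CD4 and -2.47 to -2.03 in control samples. Without Trh, a choice made after seeing the data, the other 3 had means of -1.63 to -1.41 in anti-CD4 and -1.84 to -1.70 in control samples. For T lymphocytes 3 of 8 markers were tested, Cd3e, Cd4 and Lck, with differences of 0.01, 0.02 and 0.25, none past the adjusted threshold. Cd3d, Cd3g and Cd8a did not pass the filter, and no probe on the array was matched to Trac or Trbc2. The means over the 3 tested markers were 0.23 to 0.48 in anti-CD4 and 0.12 to 0.39 in control samples. Endothelial markers, 4 of 4 tested, had means of 0.60 to 0.96 in anti-CD4 and 0.40 to 0.70 in control samples. The 5 oligodendrocyte markers had means of 3.63 to 4.09 in anti-CD4 and 3.87 to 4.19 in control samples, and the 5 microglia markers 2.28 to 2.51 in anti-CD4 and 2.30 to 2.55 in control samples. The part of these cells in the histone values was not tested.

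The promoters of the histone genes share short sequence elements that the choice of genes did not use. RefSeq promoters on GRCm38.p6, which run from 250 bases before to 50 after the start, were matched for 42 of the 49 genes and searched on both strands. The motif CCAAT was present in 36 of 42, or 85.7%, against 37.9% of 27025 promoters, and in 2 of 8 promoters of H4. The motif TATAAA was present in 25, or 59.5%, against 14.2% of all promoters. The octamer ATTTGCAT, known from H2B promoters, was present in 7 of 13 promoters of H2A and 5 of 9 of H2B and in 0 of the others, 28.6% in all, against 1.75% of all promoters. The motif AAACACA, known from promoters of linker histones, was present in 5 of 6 promoters of H1 and in 21.4% of the histone promoters, against 7.14% of all. H2A and H2B genes often lie head to head, so some of these windows may overlap on opposite strands. The promoter of Hist1h1b, at chr13:21780576-21780875 on the minus strand of GRCm38.p6, is shown since this gene alone had groups that did not overlap. Capitals mark CCAAT on either strand, AAACACA and TATAAA.
Hist1h1b promoter: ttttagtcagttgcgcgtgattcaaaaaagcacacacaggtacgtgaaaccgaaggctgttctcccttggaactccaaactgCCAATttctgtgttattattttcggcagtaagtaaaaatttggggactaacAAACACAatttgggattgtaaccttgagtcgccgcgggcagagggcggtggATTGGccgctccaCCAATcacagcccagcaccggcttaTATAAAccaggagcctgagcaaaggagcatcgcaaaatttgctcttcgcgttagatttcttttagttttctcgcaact
In it CCAAT begins 168 and 53 bases before the start and lies on the other strand 66 bases before it, AAACACA begins 117 bases and TATAAA 28 bases before the start. A match is a run of letters in this window and says nothing of whether a factor binds there.

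Genes that serve the histones were set beside them. Replacement histones, of which 13 of 17 were tested, had a median difference of 0.07, and 1 was higher and 2 were lower in anti-CD4 samples at an unadjusted p under 0.05, against 6.17% and 6.83% of all rows. H1f0, the linker histone of cells that have stopped dividing, was at -2.30, -1.97, -2.23 and -2.11 in anti-CD4 samples, against -2.02, -1.54, -1.85 and -1.63 in control samples. Its groups overlapped narrowly, and its difference of -0.39 had an unadjusted p of 0.0107 and an adjusted p of 0.267. With normexp background correction the difference was -0.25, and with the authors' table also -0.25. Macroh2a3, listed as H2afy3 and related to the macroH2A histones, had a difference of 0.31, and Macroh2a1, a macroH2A associated with silent chromatin, of -0.20. Macroh2a1 had an unadjusted limma p of 0.0357, which was not under 0.05 in 9 of 17 alternatives. With the mean of its probes the difference was -0.05 with an unadjusted p of 0.453, and with the replicate block the unadjusted p was 0.103. H2az1, the H2A variant found at gene starts, had a difference of 0.05, and H3f3a and H3f3b, which both encode the replacement histone H3.3, of -0.06 and 0.07.

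Of 22 genes for the transcription and processing of histone messages, 21 were tested, and the 1 not tested was Npat. Their median difference was 0.02, with 0 higher and 1 lower at an unadjusted p under 0.05, against 6.17% and 6.83% of all rows. That gene, Casp8ap2, encodes FLASH, which is needed to cut the ends of histone messages. It was at -1.09, -0.95, -0.85 and -1.02 in anti-CD4 samples, against -0.71, -0.59, -0.65 and -0.59 in control samples. The groups were apart, and the difference of -0.34 with a standard error of 0.07 had an unadjusted p of 0.00117 and an adjusted p of 0.201. Slbp, which binds the stem-loop, was at -0.63, -0.44, -0.46 and -0.46 in anti-CD4 samples, against -0.50, -0.49, -0.57 and -0.54 in control samples. Its difference was 0.02, with an adjusted p of 0.899. Cstf2, a cleavage factor, had a difference of -0.11, also with groups apart, and Zc3h18, which links capped RNA to its processing, of 0.22, neither past an unadjusted p under 0.05. For Zc3h18 the unadjusted p was under 0.05 in 5 of 17 alternatives.

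All 20 histone chaperones were tested, with a median difference of 0.08, 1 higher at an unadjusted p under 0.05 and 0 lower, against 6.17% and 6.83% of all rows. Anp32e, which removes the variant H2A.Z from chromatin, was at 1.08, 1.0004, 1.13 and 1.01 in anti-CD4 samples, against 0.69, 0.73, 0.93 and 0.90 in control samples. The groups were apart, and the difference of 0.24 had an unadjusted p of 0.0125 and an adjusted p of 0.270. With the mean of its probes the difference was 0.14 with an unadjusted p of 0.107. Rbbp7, a subunit of several chromatin complexes, had a difference of 0.20, and Atrx, which with Daxx places H3.3, of -0.12 with groups apart; neither was past an unadjusted p under 0.05. With the mean of its probes Atrx had a difference of -0.30 with an unadjusted p of 0.00124 and an adjusted p of 0.211, and with normexp its unadjusted p was 0.0341.

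Since most of these histone genes serve the copying of DNA, genes of DNA synthesis and cell division were read as well. Of 31 such genes 25 were tested, with Top2a, Ccne2, Cdk1, Cdk2, Cdc6 and Cdc45 not passing the filter. Their median difference was -0.05, with 4 higher and 5 lower at an unadjusted p under 0.05, against 6.17% and 6.83% of all rows, and none past the adjusted threshold. Mki67, a marker of dividing cells, was at -1.96, -2.47, -1.95 and -2.32 in anti-CD4 samples, against -1.44, -1.38, -1.81 and -1.90 in control samples. Every anti-CD4 sample was below every control sample, and the difference of -0.54 had an adjusted p of 0.264. Ccna2, the cyclin of the copying phase and of entry into mitosis, was at -2.44, -2.62, -2.47 and -2.60 in anti-CD4 samples, against -1.90, -2.06, -2.41 and -2.06 in control samples. Its difference of -0.43 had an adjusted p of 0.247 and its groups were apart, with control replicate 3 close to the anti-CD4 samples. Ube2c, an enzyme of the exit from mitosis, was at -3.99, -3.74, -3.15 and -3.71 in anti-CD4 samples, against -2.98, -2.82, -2.69 and -3.34 in control samples. Its difference of -0.69 had an adjusted p of 0.252, and its groups overlapped. With the values of the authors' table the differences of Ccna2 and Ube2c were -0.22 and -0.21, and with normexp that of Ube2c was -0.29. The 4 that were higher were E2f1, E2f2, Cdt1 and Rrm1, with differences of 0.39, 0.32, 0.35 and 0.14. The other 2 that were lower were Ccnb2 and Gins1, with -0.29 and -0.21. Groups were apart for 2 genes in each direction, E2f2 and Rrm1 higher and Mki67 and Ccna2 lower, against 3.82% and 4.36% of all rows. Mki67 was named whatever its values, and Ccna2 and Ube2c by a rule that took the smallest p-values of the list. E2f1, E2f2, Cdt1, Rrm1, Ccnb2 and Gins1 were chosen after their values were seen.

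**Figure D4:**
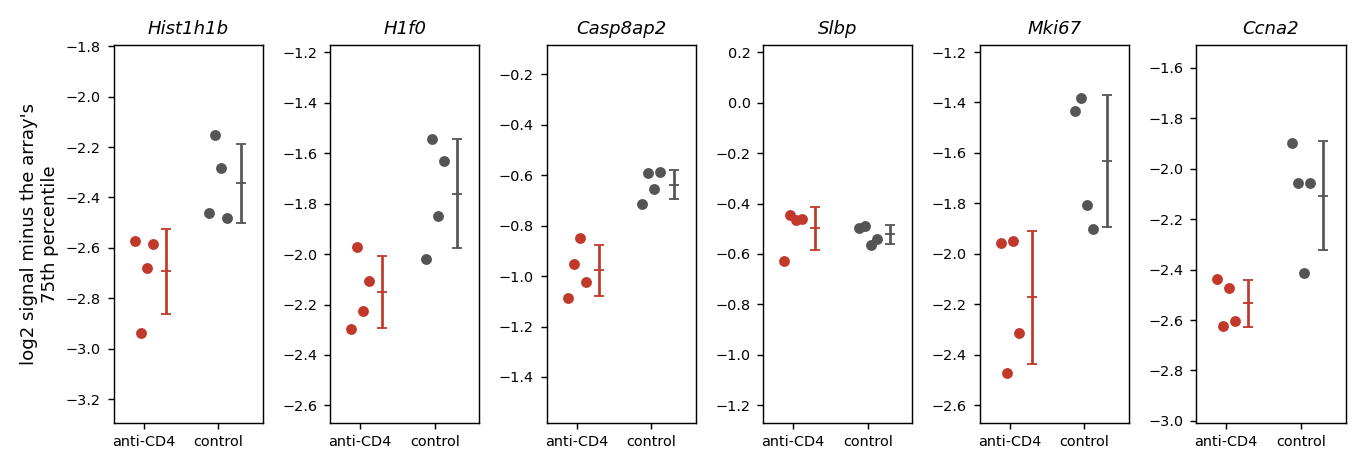
Log2 signal minus the array's 75th percentile (y axis, each panel spanning the same range) in anti-CD4 samples on the left and control samples on the right of each panel for 6 genes, with points for samples and bars for the mean ± SD of 4. The groups are apart for Hist1h1b, Casp8ap2, Mki67 and Ccna2, with adjusted p of 0.270, 0.201, 0.264 and 0.247, and overlap for H1f0 and Slbp.

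**Figure D5:**
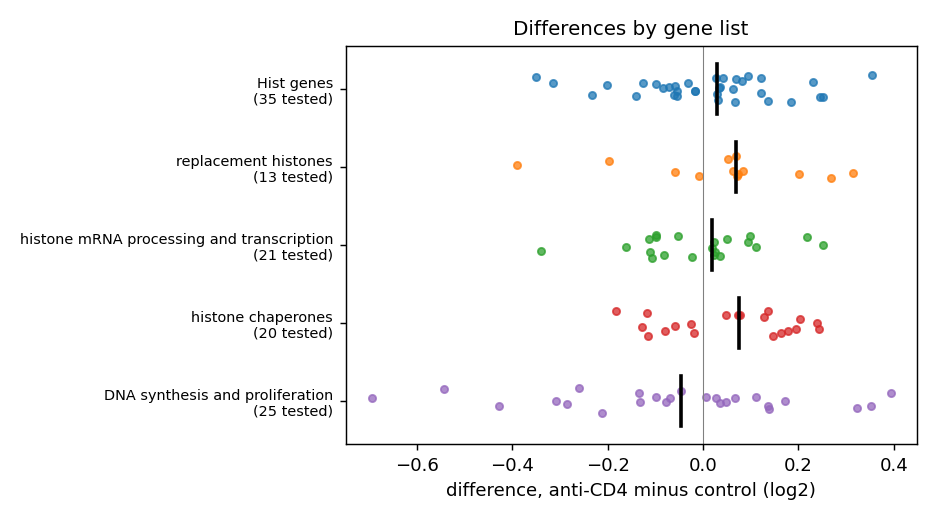
Difference between anti-CD4 and control samples (log2, x axis) for each tested gene of 5 lists, 1 point a gene, spread vertically for legibility, with a black bar at each list's median. The medians lie between -0.05 for DNA synthesis and proliferation and 0.08 for histone chaperones, with 0.03 for the Hist genes.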

How the data were processed

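Spot values are intensity values in scanner files deposited by the authors. Per the file headers, Feature Extraction 10.7.3.1 read array design 028005, and the signal was already background-subtracted within each array. The authors also deposited a table of log2 values of the same arrays. The submitters' processing notes name limma; its remaining steps were not given in the sources used. Its columns have medians of 7.83, its centring is unstated, and it was used as an alternative only.

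The processed signal was taken to log2 and the array's 75th percentile was subtracted. Control spots and outlier-flagged spots were left out, spots of a probe were averaged, and the brightest tested probe stood for a gene. Probes without a gene name were kept as rows of their own. Between 51.1% and 54.3% of probes per array were well above background and no spot was saturated, and the number of arrays limits the precision. Groups came from the sample titles. The test was two-sided, from limma 3.58.1 (lmFit, then eBayes) under R 4.3.3, with p-values adjusted by Benjamini-Hochberg over 23608 rows and called under 0.05. The fit was tested on simulated data. A gene listed under 2 names was counted once. Single values were also compared by an exact two-sided permutation test over 70 assignments.

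The members and all gene lists were chosen with earlier results of these data known. Named genes were the histone genes with groups apart, in each type the 2 brightest and the one with the smallest p, every tested H1, Hist3 and Hist4 gene, the 3 genes with the smallest p in each comparison list, and Slbp, H2az1, H3f3a, H3f3b, H1f0 and Mki67. Other genes were chosen after their values were seen. Probe positions are those of the files on mm9; RefSeq promoters on GRCm38.p6 were used for their sequence, matched by symbol. Replicate numbers were not used to pair the samples in the main fit, since the labels do not say that they do. Same-numbered arrays shared a column of the slide, and the replicate block was tried as an alternative. Same-numbered samples had correlated deviations of -0.45, -0.29, -0.31 and 0.30. Differently numbered samples ranged from -0.42 to 0.45, so these values cannot decide whether the samples were paired. Alternatives covered normalization, background correction, the dim-probe filter, the probe of a gene, the block, empirical Bayes options, the authors' table, the threshold and each array left out.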

Additional observations from a re-analysis of the deposited data

Results flagged for a closer look

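Samples far from the others of their group, by Dixon's gap test at its 95% critical value for 4 samples, were found in 8 of the 112 groups looked at, and about 1 in 20 is flagged by chance. Anti-CD4 replicate 2 was such a low value for Hist1h2af at 5.50, for Hist1h2ak at 5.39, for Hist1h2an at 4.01, for Hist2h2aa2 at 5.65 and for Hist2h2ac at 5.37, where the next anti-CD4 samples were at 5.74, 5.61, 4.30, 5.86 and 5.56. Its median deviation over H2A, -0.23, was apart from the other anti-CD4 samples in the same way. These values come from one array, and the probes of Hist1h2ak, Hist1h2an and Hist2h2aa2 differ from that of Hist1h2af at 5 of 60 bases, so they are not separate signs. Control replicate 1 was low for Hist2h2ac, at 5.39, where the next control sample was at 5.51. For Slbp anti-CD4 replicate 1 was low, at -0.63, where the next was at -0.46.

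Outside the tested genes, Hist1h1a and Hist1h3f were well above background on 2 anti-CD4 arrays each and on 0 control arrays. Their highest anti-CD4 levels were -3.67 for Hist1h1a and -3.30 for Hist1h3f, against highest control levels of -3.96 and -3.87. Neither passed the filter, and no test was run.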

How the results depend on the processing

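No histone gene passed the adjusted threshold under any of the 18 alternatives. The 1 histone gene at an unadjusted p under 0.05 became 2 with normexp background correction, 2 without the filter on dim probes, 2 with the authors' table and 3 with the replicate block, and 1 to 6 when each array was left out. The count of histone genes whose groups did not overlap, 1, became 2 without the filter and 1 to 7 with each array left out. The highest of both came without anti-CD4 replicate 2; without control replicate 2 the first was 3. Over all rows, 0 passed the adjusted threshold, 2 with trend and robust in eBayes, 2 with the authors' table, and 0 to 11 with each array left out, the 11 without anti-CD4 replicate 3. The causes were not tested. The median difference of the histone genes stayed between -0.02 and 0.10, and those of H2A, H2B, H3 and H4 crossed 0 in some alternatives, while that of H1 stayed between 0.13 and 0.32. The difference of Hist1h1b was below 0 in all 17 alternatives that refitted it, from -0.40 to -0.18, the value nearest 0 with the authors' table. Since its groups were apart, leaving out any array could not change this sign, so those fits add no support for it. With the mean of a gene's probes Atrx had -0.30, Macroh2a1 -0.05 and Anp32e 0.14. The replicate block ended the unadjusted call of Macroh2a1, put Hist2h2bb past that threshold, and left the other named genes on their side of it. Scalings moved the median of all rows by under 0.03. Dim probes, the 8 arrays and shared probe sequence limit what could be seen.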
